A study of Homo sapiens with 6 samples.

Results

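The S100 genes encode small calcium-binding proteins, and 10 of them (S100A2, S100A4, S100A6, S100A8, S100A9, S100A10, S100A11, S100A14, S100A16 and S100P) were followed here out of 19469 genes with read counts. They were chosen by name, with earlier results of these data known, and the table of counts held all 10. L3.6pl cells, a human pancreatic cancer line derived from a lymph node metastasis of an adenosquamous carcinoma, were sorted by flow cytometry on surface L1CAM, a cell adhesion molecule of the immunoglobulin family. L1CAM-positive (L1high) and L1CAM-negative (L1low) cells gave 3 RNA-seq libraries each, with no treatment of either population. Nothing in the labels says whether the 3 libraries came from separate cultures or sorts, so the p-values measure the spread between these libraries, which may be technical. A characteristic in the sample labels spells the line L6.6pl. Every value describes 1 cell line in culture.

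S100 proteins are built from EF-hand calcium-binding loops and mostly work as dimers. Calcium binding opens a surface on the dimer that grips target proteins such as annexins, cytoskeletal proteins and p53. Some members are also released from cells and act on receptors such as RAGE and TLR4, and most of the genes sit together in a cluster on chromosome 1, with S100P apart on chromosome 4.

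Levels are given as CPM, the counts of a gene relative to the total of its library after TMM scaling of the 6 libraries. A log2 fold change is L1low minus L1high, so a negative value means less RNA in L1low cells. Genes were called at an adjusted p under 0.05 in edgeR (quasi-likelihood test), with the p-values of 19467 genes adjusted by the method of Benjamini and Hochberg. Total counts ran from 16334610 to 21064685 per library. L1CAM, the gene behind the sort, ran from 69.8 to 89.5 CPM in the L1high libraries and from 17.7 to 23.7 CPM in the L1low libraries, a log2 fold change of -1.99 with a standard error (SE) of 0.12. Of 7 epithelial markers, 7 were in the table, and they summed to between 4542 and 5151 CPM in L1high libraries and between 5028 and 5414 CPM in L1low libraries. Named after their values were seen, KRT19 was called higher in L1low cells (log2 fold change 0.63), and CLDN4 (-0.35) and EPCAM (-0.30) were called lower. The other 4, KRT7 (0.16), KRT8 (-0.23), KRT18 (-0.01) and CDH1 (-0.04), were not called. Among all genes tested, 3.37% were called lower and 4.58% higher. Of 8 fibroblast markers, 3 were in the table. LUM was called higher (0.78), while COL1A1 (-0.25) and COL3A1 (0.29) were not called. The part of these markers in the results was not tested.

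Of the 10 S100 genes, 5 were lower in L1low cells (S100A9, S100A8, S100P, S100A16 and S100A11), 0 were higher and 5 were not called. Among all genes tested, 7.95% were called, 3.37% lower and 4.58% higher. In a bulk sample, fewer cells that express a gene and less RNA per cell cannot be told apart. At an unadjusted p under 0.05, 6 S100 genes were lower and 0 higher, beside 11.4% and 11.9% of all genes tested. DESeq2 also called 5 lower and 0 higher, beside 3.64% and 4.56% of all genes. Without L1high replicate 3, a library that the study's own comparison leaves out, the same 5 were lower and 0 higher, beside 3.15% and 4.41% of all genes. The count fell to 3 (S100A9, S100A8 and S100P) without L1high replicate 1 or without L1low replicate 2, where the genes called in all fell from 1548 to 674 and 627. In 6 of the 10 genes every L1low library lay below every L1high library, an order seen in 13.7% of all genes tested, and in 0 every L1low library lay above, an order seen in 15.2%. The median log2 fold change of the 10 genes was -0.28, and that of all genes tested was -0.01. The 3 other S100 genes of the table, outside the 10, were not called and had log2 fold changes between 0.04 and 0.59. The 10 were chosen with earlier results known, so their counts do not stand for the whole family.

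The largest falls were in S100A9, S100A8 and S100P, and the sequences just before their start sites are given here beside those of S100A4, which was not called, and S100A16, which fell less. Each is the 250 bases before the RefSeq start on GRCh38.p14, read 5′ to 3′ on the gene's own strand. Capitals mark the TATA box motif TATAAA. The windows are chr1:153357604-153357853 on the plus strand for S100A9, chr1:153391074-153391323 on the minus strand for S100A8, chr4:6693628-6693877 on the plus strand for S100P, chr1:153545807-153546056 on the minus strand for S100A4 and chr1:153613138-153613387 on the minus strand for S100A16.
S100A9: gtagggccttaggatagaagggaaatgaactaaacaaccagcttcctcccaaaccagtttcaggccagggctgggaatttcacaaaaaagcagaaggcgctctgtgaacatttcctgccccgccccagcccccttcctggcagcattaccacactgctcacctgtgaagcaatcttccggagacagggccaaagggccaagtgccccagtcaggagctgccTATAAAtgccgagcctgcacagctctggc
S100A8: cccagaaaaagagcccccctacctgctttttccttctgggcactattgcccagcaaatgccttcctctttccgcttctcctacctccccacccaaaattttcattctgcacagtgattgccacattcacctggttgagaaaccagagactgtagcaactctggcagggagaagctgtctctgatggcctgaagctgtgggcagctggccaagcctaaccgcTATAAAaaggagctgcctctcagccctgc
S100P: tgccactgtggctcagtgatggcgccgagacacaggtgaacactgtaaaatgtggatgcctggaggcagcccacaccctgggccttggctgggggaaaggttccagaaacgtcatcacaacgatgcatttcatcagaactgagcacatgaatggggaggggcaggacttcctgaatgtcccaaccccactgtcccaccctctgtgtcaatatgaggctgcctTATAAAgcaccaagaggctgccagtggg
S100A4: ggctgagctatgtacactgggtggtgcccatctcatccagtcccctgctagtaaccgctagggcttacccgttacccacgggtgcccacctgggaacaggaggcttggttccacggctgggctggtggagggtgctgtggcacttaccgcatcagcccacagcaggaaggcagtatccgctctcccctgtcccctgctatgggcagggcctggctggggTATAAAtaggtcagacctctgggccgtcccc
S100A16: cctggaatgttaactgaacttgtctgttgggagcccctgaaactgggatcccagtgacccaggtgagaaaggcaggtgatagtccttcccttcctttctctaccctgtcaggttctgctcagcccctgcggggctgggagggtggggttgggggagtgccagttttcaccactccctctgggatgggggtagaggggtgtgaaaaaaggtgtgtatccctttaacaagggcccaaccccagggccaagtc
TATAAA began 29 bases before the start in S100A9, 29 in S100A8, 28 in S100P and 31 in S100A4. Over the window from 250 bases before to 50 after the start, searched on both strands, 3 of the 5 genes that fell and 1 of the 5 others held it. Of 34943 RefSeq windows of the same length, 4043 (11.6%) held it on either strand, and 801 (2.29%) held it on the gene's strand between 21 and 40 bases before the start. Only exact matches were counted. S100A6 and S100A14, not called and with windows not shown, held TATAAG, which differs in its last base, on the gene's strand within that range. How many of all windows hold TATAAG was not counted. The AP-1 motif TGANTCA, which apart from its middle base reads alike on both strands, was in 0 of the 5 genes that fell and in 1 of the 5 others, S100A2, and in 7.72% of all windows. Both motifs were chosen after the expression values had been seen. A match in these letters is a description and not a bound site.

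**Figure D1:**
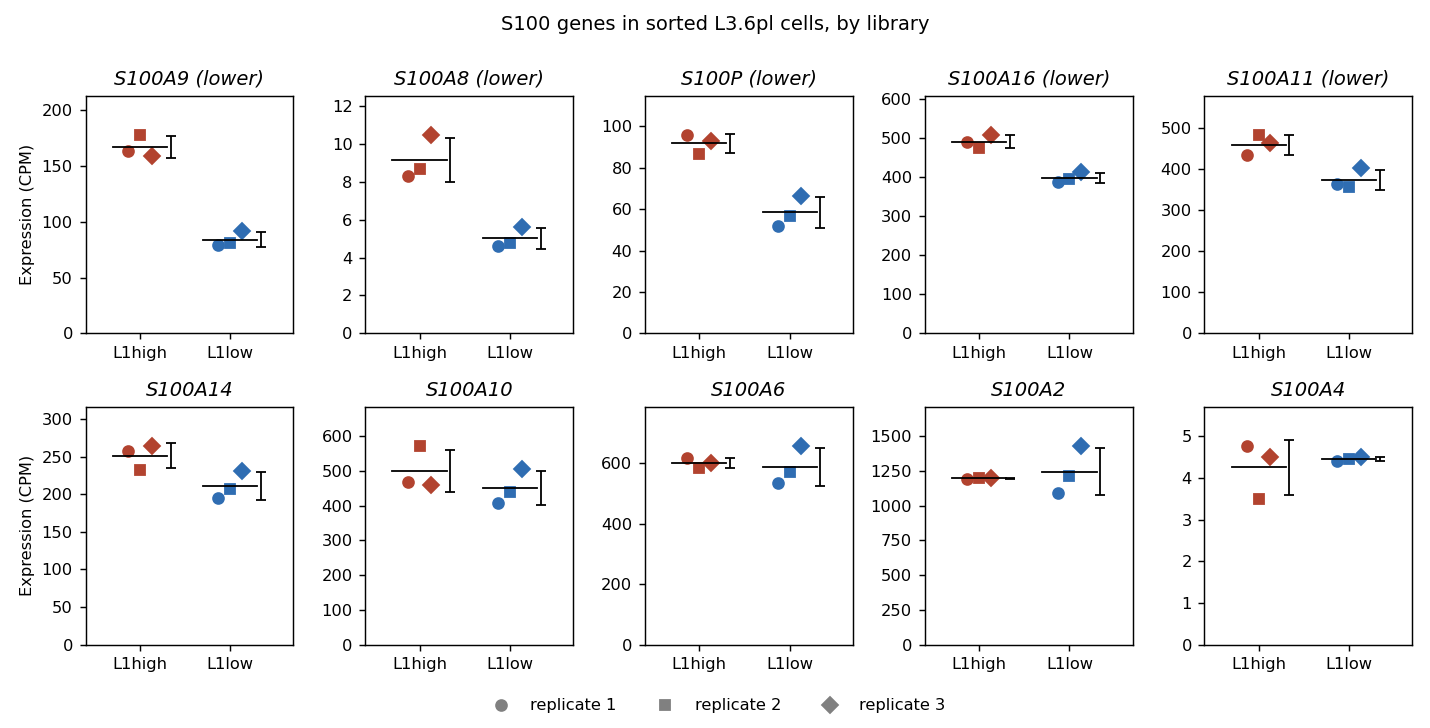
Level of each of the 10 S100 genes in CPM, on an axis from 0 scaled to each gene, in the 3 L1high and 3 L1low libraries, each point a library, with a line for the mean and a bar for ± SD (n = 3) and "(lower)" marking genes with an adjusted p under 0.05. The L1low libraries of S100A9 lie between 78.9 and 91.6 CPM, below the L1high libraries at 158.8 to 177.8 CPM, whereas the groups of S100A2, S100A4, S100A6 and S100A10 overlap.

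S100A9 and S100A8 encode the subunits of calprotectin, a heterodimer best known from neutrophils and monocytes that binds zinc, manganese and calcium and signals through TLR4 and RAGE. S100A9 (ENSG00000163220, chr1:153357854-153361023, plus strand) measured 163.9, 177.8 and 158.8 CPM in the L1high libraries and 78.9, 81.2 and 91.6 CPM in the L1low libraries. The groups did not overlap, and the highest L1low library stood well below the lowest L1high library. S100A9 fell from 167 ± 9.81 to 83.9 ± 6.76 CPM (SD, n = 3 each), a log2 fold change of -0.99 (SE 0.08, 95% confidence interval -1.16 to -0.82, edgeR quasi-likelihood adjusted p = 1.54e-05). Among the 657 genes called lower, it ranked 22 by p and 88 by fold.

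S100A8 (ENSG00000143546, chr1:153390032-153391073, minus strand) was measured at 8.34, 8.67 and 10.5 CPM in the L1high libraries against 4.62, 4.79 and 5.65 CPM in the L1low libraries. These levels rest on 177, 178 and 172 counts and on 84, 86 and 100 counts. The groups did not overlap. S100A8 fell by 0.86 on the log2 scale (SE 0.15, 95% confidence interval -1.19 to -0.54, edgeR quasi-likelihood adjusted p = 0.0042). Per kilobase of exon, S100A9 over S100A8 was 30.6, 31.9 and 23.6 in L1high and 26.5, 26.3 and 25.2 in L1low libraries. On counts alone it was 19.6, 20.5 and 15.2 in L1high and 17.1, 16.9 and 16.2 in L1low libraries. The L1low ratios lay inside the range of the L1high ratios, with S100A9 RNA in excess over that of its partner in both populations.

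Of 13 myeloid markers, 2 were in the table, and the other 11, among them PTPRC, CD14 and LYZ, were not analysed here. ITGAM, the integrin CD11b of neutrophils and macrophages, fell from 3.50 ± 0.508 to 1.19 ± 0.343 CPM (SD, n = 3 each), a log2 fold change of -1.55 (SE 0.25) with an edgeR quasi-likelihood adjusted p of 0.0030. The ITGAM levels rest on few counts, 82, 60 and 61 in the L1high libraries and 25, 25 and 14 in the L1low libraries. CD68, a lysosomal protein of macrophages, measured 8.67 CPM in L1high and 10.1 CPM in L1low cells and was not called. The 2 markers summed to between 11.3 and 12.7 CPM in the L1high libraries and between 10.2 and 12.7 CPM in the L1low libraries. Their part in the fall of S100A8 and S100A9 was not tested.

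S100P, a member that binds ezrin and RAGE and is used as a marker of pancreatic ductal adenocarcinoma, also fell (ENSG00000163993, chr4:6693878-6697170, plus strand). It measured 95.8, 86.8 and 92.9 CPM in the L1high libraries and 51.9, 56.8 and 66.6 CPM in the L1low libraries. The groups did not overlap. The mean went from 91.8 ± 4.56 to 58.4 ± 7.47 CPM (SD, n = 3 each), a log2 fold change of -0.65 (SE 0.09, 95% confidence interval -0.86 to -0.45, edgeR quasi-likelihood adjusted p = 0.0013). S100P is the 1 gene of the 10 that lies outside the chromosome 1 cluster. The calls of S100A9, S100A8 and S100P held in all 14 other settings tried, among them each library left out in turn.

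S100A16 and S100A11 fell by less. S100A16, a broadly expressed member (ENSG00000188643, chr1:153606886-153613145, minus strand), measured 490, 474 and 508 CPM in the L1high libraries and 387, 394 and 413 CPM in the L1low libraries, with no overlap. Its log2 fold change was -0.30 (SE 0.06, 95% confidence interval -0.43 to -0.17, edgeR quasi-likelihood adjusted p = 0.0102). This call was lost without L1high replicate 1 (adjusted p = 0.067) and without L1low replicate 2 (adjusted p = 0.077), while the fold change stayed at -0.30 and -0.29.

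S100A11 (ENSG00000163191, chr1:152032506-152047907, minus strand), which binds annexin A1 and takes part in membrane repair, measured 433, 482 and 462 CPM in the L1high libraries and 362, 356 and 402 CPM in the L1low libraries. The groups did not overlap, with L1low replicate 3 the nearest to the L1high range. The log2 fold change was -0.30 (SE 0.07, 95% confidence interval -0.45 to -0.15, edgeR quasi-likelihood adjusted p = 0.0226). The call was lost when L1high replicate 1, L1high replicate 2, L1low replicate 1 or L1low replicate 2 was left out, with adjusted p up to 0.144 and fold changes between -0.34 and -0.26. Its near-identical processed copies S100A11P1 and S100A11P2 were in the table at 11.2 and 6.72 CPM in L1high cells and were not called, and reads of the parent gene could be split between them.

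S100A14, an epithelial member (ENSG00000189334, chr1:153614255-153616986, minus strand), measured 258, 233 and 264 CPM in the L1high libraries and 195, 207 and 232 CPM in the L1low libraries. The lowest L1high and the highest L1low library almost met. The log2 fold change was -0.25 (SE 0.08, 95% confidence interval -0.43 to -0.08), and the edgeR quasi-likelihood adjusted p of 0.0763 missed the threshold. With a library left out, S100A14 passed it without L1high replicate 2 and without L1low replicate 3.

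**Figure D2:**
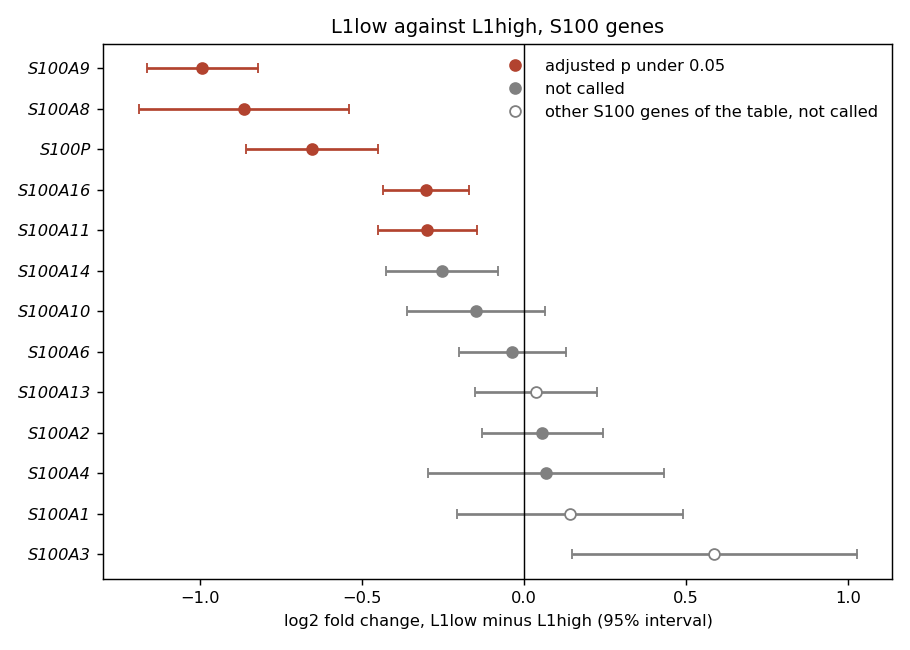
Log2 fold change, L1low minus L1high, of the 10 S100 genes and of the other 3 S100 genes of the table, with bars for the 95% confidence interval. S100A9 at -0.99, S100A8 at -0.86 and S100P at -0.65 lie farthest below 0, and the interval of S100A10 spans 0.

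The other 4 genes showed no call in either direction. S100A10 (p11), which does not bind calcium and forms a heterotetramer with annexin A2 at the plasma membrane, measured 499 ± 61.6 CPM in L1high and 451 ± 49.7 CPM in L1low cells (SD, n = 3 each). Its log2 fold change of -0.15 had a 95% confidence interval of -0.36 to 0.07 (edgeR quasi-likelihood adjusted p = 0.40). The groups overlapped, since L1low replicate 3, at 505 CPM, exceeded L1high replicates 1 and 3. The ratio of S100A10 to ANXA2 counts ran from 1.03 to 1.18 in the L1high and from 0.966 to 1.07 in the L1low libraries. Per kilobase of exon, the same ratio ran from 11.7 to 13.5 in the L1high and from 11.1 to 12.2 in the L1low libraries.

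S100A6 (calcyclin), which binds CACYBP and several annexins, measured 603 ± 16.7 CPM in L1high and 588 ± 61.7 CPM in L1low cells (SD, n = 3 each), with a 95% confidence interval of -0.20 to 0.13 for its log2 fold change. S100A2, a largely nuclear member of basal epithelial cells that binds p53, was the most abundant of the 10. It measured 1192, 1203 and 1197 CPM in the L1high libraries and 1090, 1216 and 1428 CPM in the L1low libraries. The L1low values of S100A2 spread on both sides of the L1high values, and the interval of its log2 fold change ran from -0.13 to 0.24.

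S100A4 (metastasin), a mesenchymal member that binds non-muscle myosin IIA, was the least abundant at 4.26 ± 0.664 and 4.46 ± 0.0572 CPM (SD, n = 3 each), from 72 to 101 counts per L1high library and 80 in each L1low library. Its log2 fold change was 0.07, with an interval of -0.30 to 0.43. A change within that interval could not be told from none. The gene spans of S100A4 and S100A3, introns included, overlap on the same strand by 1930 bases. Whether their exons overlap was not checked, so how far reads can be assigned to either is not known.

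Per kilobase of merged exon, S100A2 led in L1high cells at 774 CPM per kb, followed by S100A11 at 707, S100A6 at 621, S100A10 at 493, S100A9 at 291, S100A16 at 288, S100A14 at 197, S100P at 195, S100A8 at 10.3 and S100A4 at 4.50 CPM per kb. The ranges of the neighbours S100A9 and S100A16, and of S100A14 and S100P, overlapped. In L1low cells S100A9 moved from rank 5 to rank 7, at 146 CPM per kb, and the ranges of S100A6 and S100A11, of S100A14 and S100A9, and of S100A9 and S100P overlapped. S100A2 stayed first at 805 ± 110 CPM per kb (SD, n = 3). The level of S100A9 stood beside that of S100A16 in L1high cells and lay below it, without overlap, in L1low cells. These ranks depend on exon lengths merged over all GENCODE 44 transcripts of a gene, whereas the counts used Ensembl 94.

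The 10 genes together took 0.376%, 0.382% and 0.378% of all counts in the L1high libraries and 0.314%, 0.332% and 0.374% in the L1low libraries. L1low replicate 3 was the highest L1low library in 10 of the 10 genes, by a median deviation of 0.15 on the log2 scale from the mean of its group. Among 745 protein-coding genes with merged exons no longer than 1701 bases, the length of the longest of the 10, it was the highest L1low library in 420, and among 11828 longer genes in 4208. The median log2 fold change was -0.08 in the short genes and -0.01 in the longer ones. With an offset for exon length, added after the data had been seen, the same 5 S100 genes were called, with log2 fold changes of -0.97 for S100A9, -0.84 for S100A8, -0.64 for S100P, -0.27 for S100A16 and -0.28 for S100A11.

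**Figure D3:**
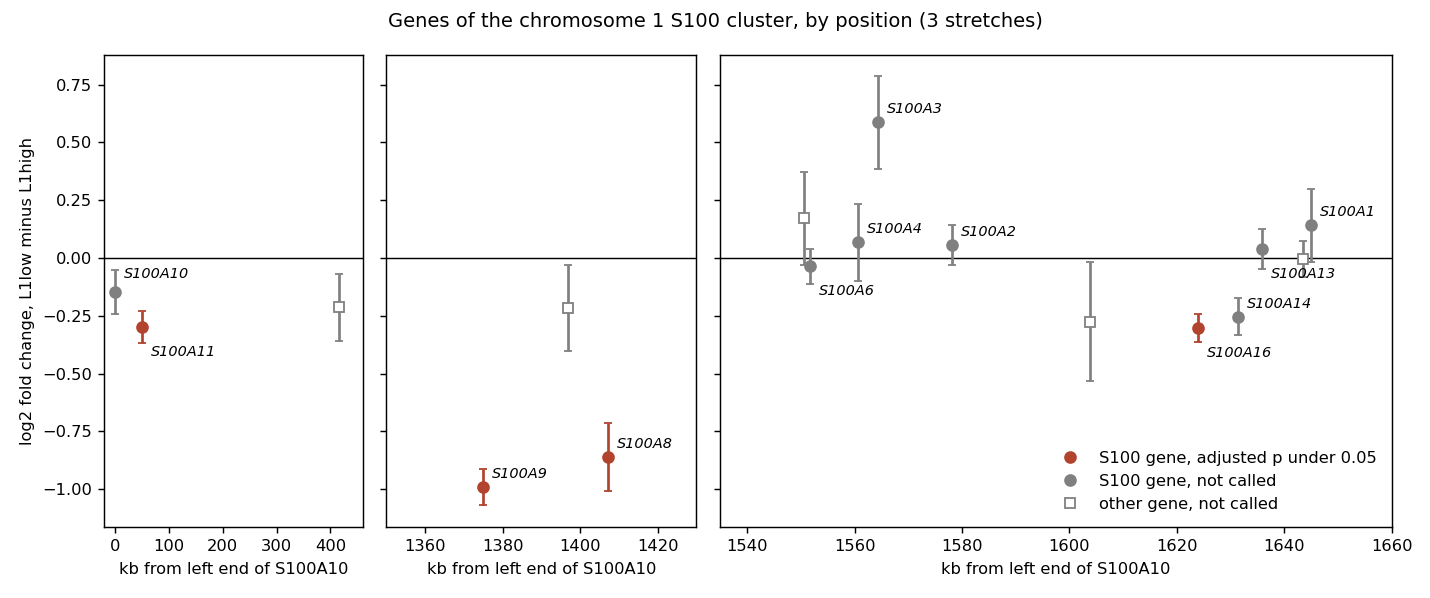
Log2 fold change, L1low minus L1high, of the genes in the chromosome 1 S100 cluster against distance in kb from the left end of S100A10, in 3 stretches drawn at different scales, with bars for the SE. Circles are S100 genes, red where called, and open squares are the 5 other genes of the table between them. S100A9 and S100A8 lie lowest, at 1375 and 1407 kb.

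The cluster on chromosome 1 held 12 S100 genes of the table and 5 other genes over 1651 kb. Of the 12, 4 were called lower and 0 higher, beside 3.37% and 4.58% of all genes tested. The 5 other genes, pseudogenes or loci without a gene symbol, averaged between 2.77 and 68.8 CPM in L1high cells. Some of these loci overlap S100 genes. The 5 had log2 fold changes between -0.28 and 0.17, and 0 of them were called by edgeR's test, 0 at an unadjusted p under 0.05. With 5 genes and 7.95% of all genes called, this count is near the background, and no difference between the S100 genes and the others was tested. S100A9 and S100A8 lie on opposite strands, with the pseudogene LAPTM4BP1 (log2 fold change -0.22, not called) between them in the table, and had the lowest log2 fold changes of the genes in the cluster. S100A16 had a log2 fold change of -0.30, and S100A14 beside it one of -0.25 that was not called. S100A13 and S100A1, which lie beyond them at the end of the cluster, had log2 fold changes of 0.04 and 0.14 and were not called. S100A6, S100A4, S100A3 and S100A2, which lie between S100A8 and S100A16, were not called either.

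Of 11 further S100 genes listed, 3 were in the table and 0 were called. With 7.95% of all genes tested called, 0 of 3 is near the background. Of 7 fused-type genes such as filaggrin and trichohyalin, 0 were in the table. S100A3, a cysteine-rich member of the hair follicle, measured 2.95 ± 0.495 CPM in L1high and 4.47 ± 0.879 CPM in L1low cells (SD, n = 3 each). Its groups did not overlap, and its log2 fold change of 0.59 (95% confidence interval 0.15 to 1.03) had an edgeR quasi-likelihood adjusted p of 0.104. S100A13, which takes part in the release of FGF1, measured 75.9 and 78.0 CPM, and S100A1, a regulator of calcium handling in muscle, measured 6.67 and 7.34 CPM. The gene span of S100A1, introns included, overlaps that of S100A13 on the opposite strand by 3435 bases. Overlap of their exons was not checked, and the strand option of the counting is not given in the sources used here.

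The partners and targets of S100 proteins did not move in a common direction. Of 14 such genes, 14 were in the table, 7 with a log2 fold change below 0 and 7 above, at a median of 0.02. By call, 1 was lower, 3 higher and 10 not called, beside 3.37% lower and 4.58% higher among all genes tested. ANXA1, which encodes the partner of S100A11, fell from 1727 ± 59.2 to 1417 ± 63.3 CPM (SD, n = 3 each; log2 fold change -0.29, edgeR quasi-likelihood adjusted p = 0.0120). AHNAK, a giant scaffold bound by S100A10 and annexin A2, rose from 278 ± 34.6 to 402 ± 25.8 CPM (log2 fold change 0.53, adjusted p = 0.0040). MYH9, the myosin heavy chain bound by S100A4, rose by 0.32 on the log2 scale (adjusted p = 0.031), and ANXA11, an annexin bound by S100A6, by 0.28 (adjusted p = 0.0160). The calls of ANXA1, ANXA11 and MYH9 were lost without L1high replicate 1 or without L1low replicate 2, and that of MYH9 also without L1low replicate 3 and with the exon length offset, where its log2 fold change was 0.27. ANXA2, named here after its values were seen, measured 457 and 440 CPM (log2 fold change -0.05, adjusted p = 0.68).

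Of 5 receptors, 3 were in the table (CD36, BSG and MCAM), and RAGE and TLR4 are not among these. By call, 1 was lower, 0 higher and 2 not called, beside 3.37% lower and 4.58% higher among all genes tested. CD36, a scavenger receptor that binds the S100A8 and S100A9 complex with fatty acid, fell from 7.32 ± 1.02 to 4.84 ± 0.671 CPM (SD, n = 3 each; log2 fold change -0.60, edgeR quasi-likelihood adjusted p = 0.043). That call was lost without L1high replicate 1, L1high replicate 2, L1low replicate 2 or L1low replicate 3. BSG and MCAM were not called.

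Among 23 other EF-hand calcium sensors listed, 20 were in the table, with a median log2 fold change of -0.05. Of these, 1 was called lower, 2 higher and 17 not called, beside 3.37% lower and 4.58% higher among all genes tested. CALML3, a calmodulin-like protein of stratified epithelium, rose from 9.27 ± 1.25 to 32.1 ± 2.69 CPM (SD, n = 3 each), a log2 fold change of 1.79 (SE 0.12, edgeR quasi-likelihood adjusted p = 4.94e-06). HPCAL1, a neuronal-type calcium sensor, fell by 0.52 on the log2 scale (adjusted p = 0.0031). NCS1, a regulator of exocytosis, rose by 0.25 (adjusted p = 0.044), a call lost when any 1 of the 6 libraries was left out.

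**Figure D4:**
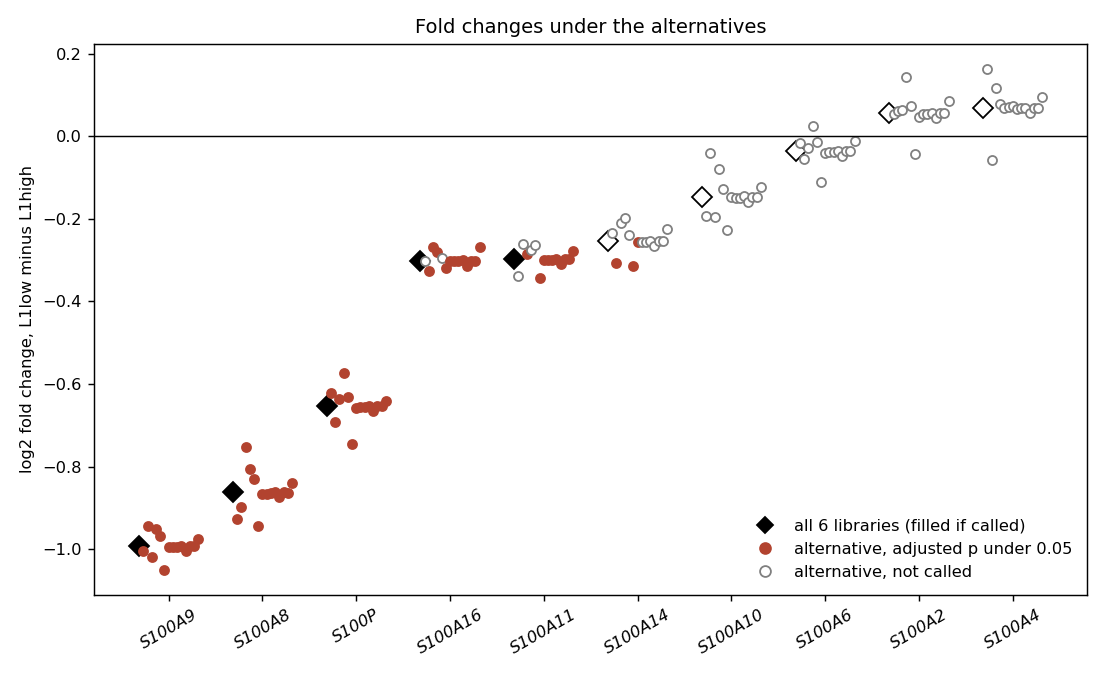
Log2 fold change, L1low minus L1high, of the 10 S100 genes in the main comparison and in each of the other settings, with filled points for an adjusted p under 0.05. S100A9 stays between -1.05 and -0.94 and S100P between -0.75 and -0.57, while S100A11 and S100A16 lose their calls in some settings.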

How the data were processed

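The authors sorted the cells by FACS, sequenced stranded mRNA libraries as paired-end reads, used BWA to align them to GRCh38 and featureCounts to assign them to genes of Ensembl 94. What they deposited are raw read counts. All 19469 genes of the table were above 1 CPM in 2 or more libraries, and genes of lower expression were not analysed here. The submitters' processing notes also name DESeq2. Versions, multi-mapping options and the strand option are not given in the sources used here. Reads that span a splice junction are not split by BWA, which can lower the counts of genes with short exons.

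All 6 libraries were compared in R 4.3.3 with edgeR 4.0.16 (TMM factors, filterByExpr, quasi-likelihood test, Benjamini-Hochberg adjustment, adjusted p under 0.05). SE is the size of the log2 fold change divided by the square root of F, and log values used a prior count of 2. The methods give no reason for dropping a library, so all were kept, although the study's own comparison leaves out L1high replicate 3. Symbols and coordinates came from GENCODE 44 (GRCh38), which matched 19344 identifiers, and start-site sequences from RefSeq (GRCh38.p14), with a window for all 10 genes. The fit was tested on simulated data in which 200 genes changed by 1 on the log2 scale, with the same dispersion for every gene. It recovered 184 of the 200, with 8 false calls. Smaller changes, such as those of S100A16 and S100A11, were not simulated.

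The members and gene lists were chosen with earlier results of these data known. Genes named are the 10 members, every other S100 gene of the table and L1CAM. To these come called partners, receptors and EF-hand sensors (at most 6 a list) and called genes inside the chromosome 1 cluster. The marker genes, the copies of S100A11, and LAPTM4BP1, ANXA2, BSG and MCAM fall outside this rule and were named after their values were seen. The alternatives were each library left out, a block for the replicate number, DESeq2 1.42.0, RLE and upper-quartile factors, library totals alone, no filter, and at least 10 counts in every library. No libraries were duplicates: in the most similar pair, L1high replicates 1 and 3, the chi-square over genes was 3.66 times its degrees of freedom.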

Additional observations from a re-analysis of the deposited data

How the results depend on the processing

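Over 308 values of 22 genes in 14 settings, 274 kept direction and call, 25 lost and 3 gained a call, and 6 turned direction. Genes called went from 1548 to between 627 (without L1low replicate 2) and 1473 with a library left out (674 without L1high replicate 1), and the S100 members called from 5 to between 3 and 6. Members fell to 3 without L1high replicate 1 or without L1low replicate 2. Partners and receptors called went from 5 to between 1 and 6, and EF-hand sensors from 3 to between 2 and 4 with a library left out and to 5 with DESeq2. With a library left out, the log2 fold change ran from -0.043 to 0.14 for S100A2, from -0.058 to 0.16 for S100A4, from -0.11 to 0.025 for S100A6, from -0.016 to 0.24 for S100A1 and from -0.019 to 0.091 for S100A13. None of these was called in any setting. Each fit with a library left out had 5 libraries, and why the number of calls differed between them was not tested. The replicate number was also fitted as a block, which gave 2363 calls, 6 members with S100A14 added (-0.26, adjusted p = 0.024), 7 partners and receptors and 5 EF-hand sensors. Libraries with the same number deviated together only weakly, with correlations of 0.07, 0.09 and 0.21, so they share a number and no pairing was assumed. Scaling with other factors and no filter changed no S100 call. These were narrow alternatives, since the TMM factors ran from 0.984 to 1.007 and the filter kept 19467 of 19469 genes. Among the 10 S100 genes and the other 3 of the table, precision is lowest for S100A3, S100A4, S100A1 and S100A8. These had 39 to 178 counts per library, with SEs of 0.20, 0.17, 0.16 and 0.15.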
